A study of Homo sapiens with 12 samples.

Results

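The arrays with the lowest level of CCND1, the gene of cyclin D1, were set against the arrays with low levels of CDK4 and CDK6, the genes of its 2 partner kinases, in MDA-MB-231, a breast cancer line that lacks the oestrogen receptor. Of the 12 Illumina BeadChip arrays of the series, 6 entered the comparison. They were chosen by measured values: 3 arrays had a CCND1 probe intensity below 4000 (the lowest-CCND1 arrays) and 3 had a CDK4 probe intensity below 1000 (the low-CDK4/CDK6 arrays). The labels describe 4 groups of 3 arrays: cells given no siRNA, a non-targeting siRNA pool, siRNA against cyclin D1, or siRNA against both CDK4 and CDK6 (CDK4/6 siRNA). All came from the same cell line, and the labels do not say whether replicates were separate cultures. The study describes its plots, array panels among them, as means of at least 3 independent experiments. It does not tie single arrays to experiments, so that p-values measure the spread between these arrays only.

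The target levels contradicted these labels. Of the lowest-CCND1 arrays the first was labelled non-targeting siRNA 1, the second no siRNA 2 and the third cyclin D1 siRNA 2. Of the low-CDK4/CDK6 arrays the first was labelled CDK4/6 siRNA 2, the second non-targeting siRNA 2 and the third no siRNA 3. Each set thus held 3 different labels, and only 1 array of each carried the label of the siRNA against its low gene. In the sample order of the series, each set was a run of 3 neighbouring arrays. The arrays are therefore named by their measured levels and not as knock-downs, and which siRNA each of them received cannot be told from the labels. Values of 3 arrays are given throughout in the order just stated.

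Cyclin D1 activates CDK4 and CDK6, which phosphorylate the retinoblastoma protein RB. This releases E2F transcription factors, which switch on genes for entry into S phase, among them cyclin E and the replication licensing factors. Cyclin D1 is also known to act at promoters without its kinases. A comparison of low CCND1 with low CDK4/CDK6 asks which genes differ between loss of the cyclin and loss of its kinases.

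The values that chose the arrays are given as a description, with no test. CCND1 was at 2951, 2703 and 3513 on the lowest-CCND1 arrays, a mean of 3056 ± 415 (SD, n = 3) and 22.1% of the mean on the arrays where all targets were high. It was at 15393, 14187 and 14977 on the low-CDK4/CDK6 arrays. The highest array inside the CCND1 limit was at 3513 and the lowest outside it at 4311. CDK4 was at 409, 275 and 301 on the low-CDK4/CDK6 arrays, 12.4% of the mean where all targets were high, against 2289, 2361 and 2431 on the lowest-CCND1 arrays. The highest array inside the CDK4 limit was at 409 and the lowest outside it at 2167. CDK6 went with CDK4, at 334, 276 and 283 against 1539, 1565 and 1470. The other 6 arrays fell in a set of 3 with intermediate CCND1 (4311 to 5100, the third replicate of each label with an siRNA) and a set of 3 with all targets high (CCND1 13659 to 13952, the first replicate of every label but the non-targeting one).

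**Figure D1:**
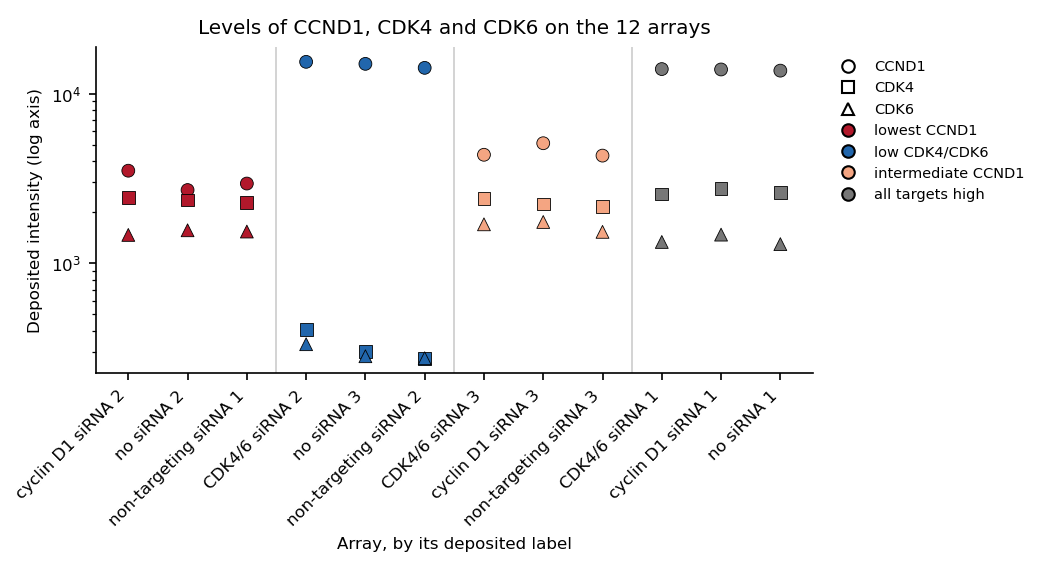
Deposited intensity (log axis) of CCND1, CDK4 and CDK6 on each of the 12 arrays, named by label and coloured by the set its levels put it in. CCND1 lies between 2703 and 3513 on the lowest-CCND1 arrays and CDK4 between 275 and 409 on the low-CDK4/CDK6 arrays, and the labels within each set differ.

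Intensities on the 12 arrays ran from 28.0 to 20972, and the median on the array labelled no siRNA 1 was 44.1. Of 48803 probes, 24347 (49.9%) were above background on at least 3 of the 6 arrays and were tested, standing for 12758 genes. Arrays of 1 set correlated at 0.996 to 0.998, and arrays of different sets at 0.996 to 0.998, so that the sets were alike over most genes. Markers of basal B breast cancer lines such as VIM, CD44, CAV1 and AXL were bright on all 12 arrays, while SPARC, another of them, was at background on all 12. Luminal breast cell markers were above background on all 12 arrays for 11 of 14 genes. Among them were KRT19 (3133 to 4123) and ERBB3 (2875 to 3933), while PGR and FOXA1 were at background on all 12. Of markers of other cell types, 6 of 13 leukocyte, 5 of 10 fibroblast and 2 of 10 endothelial genes were above background on all 12 arrays, among them CD68 (4277 to 5143), CD2 (964 to 1454) and COL1A2 (4100.0 to 5064), while PTPRC, COL3A1 and VWF were at background on all 12. None of the tested markers of these cell types passed the test between the sets. Some probes stood far from the level known for the gene they are annotated to: 27 of 121 probes for ribosomal proteins (22.3%) averaged under 100, 9 of 434 probes for olfactory receptors (2.07%) averaged over 1000, and 3 GAPDH probes averaged 42.1, 4960 and 14700. Of the genes that passed the test, 61 rested on 1 tested probe, which limits how firmly their names hold.

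Outside the targets few genes differed. Of 12758 genes, 27 were higher on the lowest-CCND1 arrays (0.212%) and 52 were higher on the low-CDK4/CDK6 arrays (0.408%) at a limma adjusted p under 0.05. Before adjustment 619 and 562 genes had p under 0.05. All 3 lowest-CCND1 arrays lay above all 3 low-CDK4/CDK6 arrays for 980 genes (7.68%) and below them for 788 (6.18%), and the 79 genes that passed were among these. Differences were moderate: 4 of the 27 and 14 of the 52 exceeded 1.5-fold, and 0 and 4 exceeded 2-fold. The median over all genes was 0.01 on the log2 scale.

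The counts rested on few arrays. Without the array labelled CDK4/6 siRNA 2 they were 69 and 153. Without non-targeting siRNA 1, no siRNA 2 or cyclin D1 siRNA 2 they were 4 and 12, 4 and 7, and 5 and 12, and without non-targeting siRNA 2 or no siRNA 3 they were 7 and 14, and 5 and 13.

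**Figure D2:**
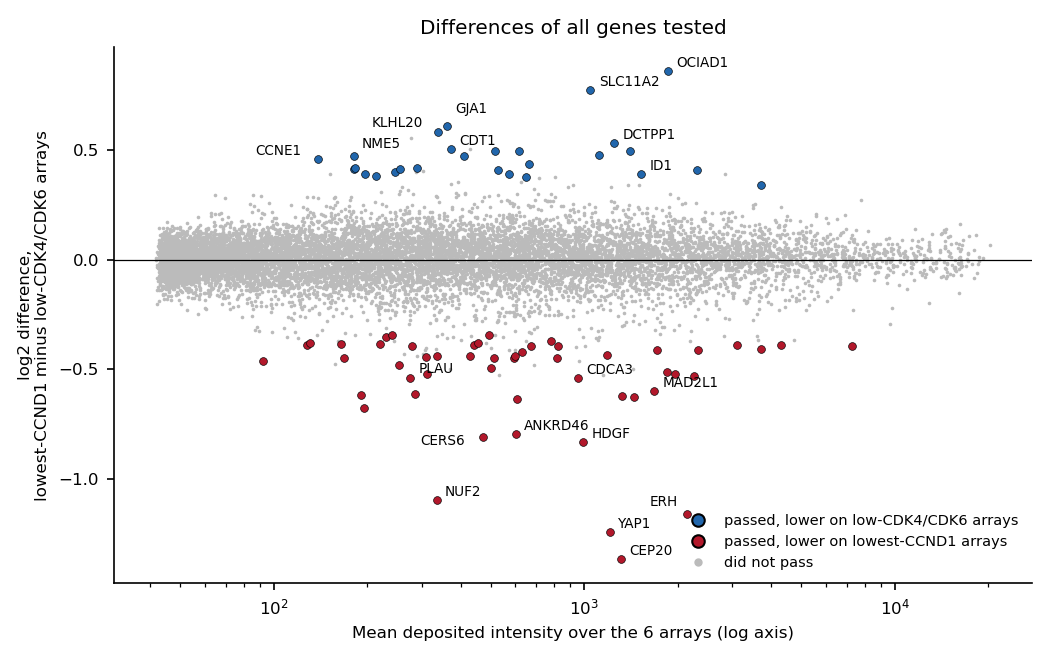
log2 difference (lowest-CCND1 minus low-CDK4/CDK6 arrays) of the 12758 genes tested against their mean deposited intensity over the 6 arrays (log axis). The 27 genes that passed above 0 are blue, the 52 below 0 are red, and CEP20, YAP1, ERH and NUF2 lie farthest below.

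The largest differences were genes low on the lowest-CCND1 arrays. CEP20, a protein of centrosomes and cilia, was at 738, 651 and 788 on the lowest-CCND1 arrays and 2006, 1913 and 1777 on the low-CDK4/CDK6 arrays. The sets did not overlap and differed 2.58-fold (log2 difference -1.37, SE 0.078, limma adjusted p = 0.000148). Between arrays of the same label, which need not have received the same siRNA, the difference was -1.35 (non-targeting siRNA) and -1.42 (no siRNA). Without overlap the sign of these differences was fixed in advance. YAP1, the transcriptional coactivator held in check by the Hippo kinases, was at 740.4, 662 and 721 on the lowest-CCND1 arrays and 1670.3, 1768 and 1674 on the low-CDK4/CDK6 arrays, a 2.37-fold difference (log2 difference -1.25, SE 0.060, limma adjusted p = 6.5e-05). Its within-label differences, likewise of fixed sign, were -1.24 and -1.31. ERH, a small nuclear protein that binds the microRNA processing machinery and splicing factors, was at 1459, 1089.7 and 1423 on the lowest-CCND1 arrays and 3013, 3139 and 2745 on the low-CDK4/CDK6 arrays (2.24-fold, log2 difference -1.16, SE 0.11, limma adjusted p = 0.00273). Here too each lowest-CCND1 array lay below every low-CDK4/CDK6 array. On the intermediate-CCND1 arrays, where CCND1 was at 33.2% of its mean on the all-high arrays, CEP20 was at 1648 to 1754, YAP1 at 1649 to 1864 and ERH at 2887 to 3662. Low levels of these 3 genes were thus not shared by the other arrays with reduced CCND1.

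HDGF, a growth factor that also binds chromatin, was at 751, 660.1 and 708 on the lowest-CCND1 arrays and 1199, 1264 and 1362 on the low-CDK4/CDK6 arrays (log2 difference -0.84, SE 0.068, limma adjusted p = 0.00145). CERS6, a ceramide synthase, was at 379, 296 and 336 on the lowest-CCND1 arrays and 647, 552 and 612 on the low-CDK4/CDK6 arrays (log2 difference -0.81, SE 0.090, limma adjusted p = 0.00758). In both genes all 3 lowest-CCND1 arrays were the lower ones. Further genes lower on the lowest-CCND1 arrays were ANKRD46 (log2 difference -0.80), the kinase VRK1 (-0.64), the Rab7 effector RILP (-0.63), the atypical MAP kinase MAPK6 (-0.62), the protease FURIN (-0.62) and RLN2, the gene of relaxin 2 (-0.61), with adjusted p from 0.0021 to 0.0181. RLN2 has a second, dim probe that did not follow it (0.07, adjusted p = 0.952).

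**Figure D3:**
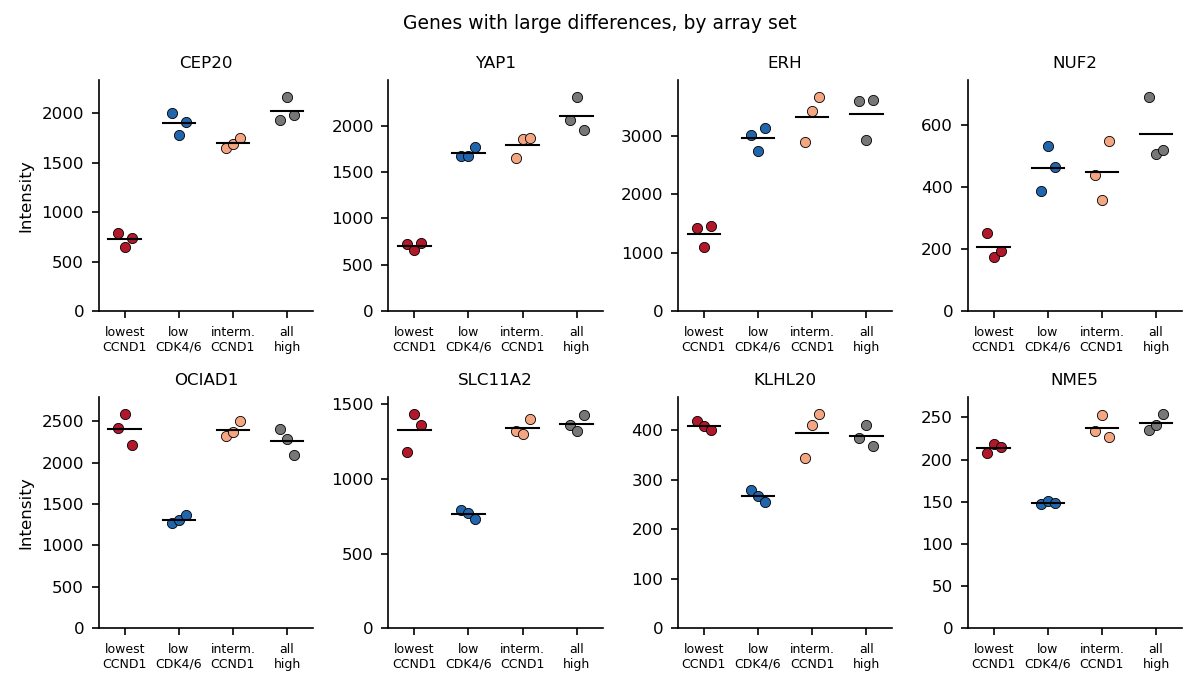
Deposited intensity of 8 genes on the 12 arrays by set, with a bar at the mean of 3 arrays. CEP20, YAP1, ERH and NUF2 are low on the lowest-CCND1 arrays alone, and OCIAD1, SLC11A2, KLHL20 and NME5 on the low-CDK4/CDK6 arrays alone.

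4 genes of a list of G2/M and mitosis genes passed the test, each lower on the lowest-CCND1 arrays. Genes of mitosis outside that list were not counted. Fewer cells in mitosis and less of these RNAs per cell cannot be told apart on such arrays. NUF2, a subunit of the NDC80 complex that ties kinetochores to microtubules, was at 195, 174 and 251 on the lowest-CCND1 arrays and 387, 467 and 534 on the low-CDK4/CDK6 arrays (2.14-fold, log2 difference -1.10, SE 0.13, limma adjusted p = 0.0111). Its other 2 probes were also lower on all 3 lowest-CCND1 arrays, with differences of -0.50 and -0.28 and adjusted p of 0.0920 and 0.160. SPC25, of the same complex, was at 369, 349 and 363 on the lowest-CCND1 arrays and 506, 512 and 471 on the low-CDK4/CDK6 arrays (log2 difference -0.44, SE 0.056, limma adjusted p = 0.0134). Its second probe, near background, did not differ past the test (-0.04). MAD2L1, of the spindle assembly checkpoint, was at 1284, 1254 and 1453 on the lowest-CCND1 arrays and 2151, 2072 and 1855 on the low-CDK4/CDK6 arrays (log2 difference -0.60, SE 0.076, limma adjusted p = 0.0134). The sets did not overlap for this probe but did for its dimmer one (-0.73, adjusted p = 0.307). CDCA3, which promotes entry into mitosis, was at 791, 692 and 845 on the lowest-CCND1 arrays and 1081, 1170.0 and 1155 on the low-CDK4/CDK6 arrays (log2 difference -0.54, SE 0.076, limma adjusted p = 0.0181).

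Of 47 listed genes of G2/M and mitosis 43 were tested, and 4 passed as lower on the lowest-CCND1 arrays and 0 as higher, against 0.408% and 0.212% of all genes. The difference was negative for 38 and positive for 5, with a median of -0.17 where the median of all genes was 0.01. For 20 of the 43 all 3 lowest-CCND1 arrays lay below all 3 low-CDK4/CDK6 arrays, and for 0 above, where 6.18% and 7.68% of all genes did so. KIF11, the spindle motor, had a difference of -0.39 (adjusted p = 0.088), CDK1, the mitotic kinase, -0.25 (adjusted p = 0.109), and CDC20, the activator of the anaphase-promoting complex, -0.22 (adjusted p = 0.305), and these 3 did not pass. PLK1 (0.01), CCNB2 (0.02), the gene of cyclin B2, and TOP2A (0.04) stayed close to 0. Over the 43 genes the mean log2 level, as a deviation from the 12 arrays, was -0.17, -0.19 and -0.17 on the lowest-CCND1 arrays and 0.02, -0.01 and 0.04 on the low-CDK4/CDK6 arrays. It was -0.07 to -0.01 on the intermediate-CCND1 arrays and 0.18 to 0.22 where all targets were high.

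Genes of DNA replication lay on both sides of 0. Of 50 listed, 43 were tested and 1 passed, CDT1, higher on the lowest-CCND1 arrays. The median was 0.01, with 22 genes above 0 and 21 below. All 3 lowest-CCND1 arrays lay above all 3 low-CDK4/CDK6 arrays for 9 of the 43 and below them for 3, where 7.68% and 6.18% of all genes did so. CDT1, which loads the replicative helicase onto origins, was at 448, 391 and 480.2 on the lowest-CCND1 arrays and 298, 305 and 307 on the low-CDK4/CDK6 arrays (1.42-fold, log2 difference 0.50, SE 0.073, limma adjusted p = 0.0214). Where all targets were high it was at 689 to 784, above both sets. MCM10 had a difference of 0.38 (adjusted p = 0.0983) and CDC6, the partner of CDT1 in licensing, 0.25 (adjusted p = 0.105), both without overlap but not past the test. PCNA was at 0.06 and RRM2 at -0.09. Over the 43 genes the mean log2 level was -0.16, -0.20 and -0.09 on the lowest-CCND1 arrays, -0.14, -0.22 and -0.21 on the low-CDK4/CDK6 arrays and 0.35 to 0.41 where all targets were high. The sets thus overlapped for replication genes, and both lay under the all-high arrays.

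**Figure D4:**
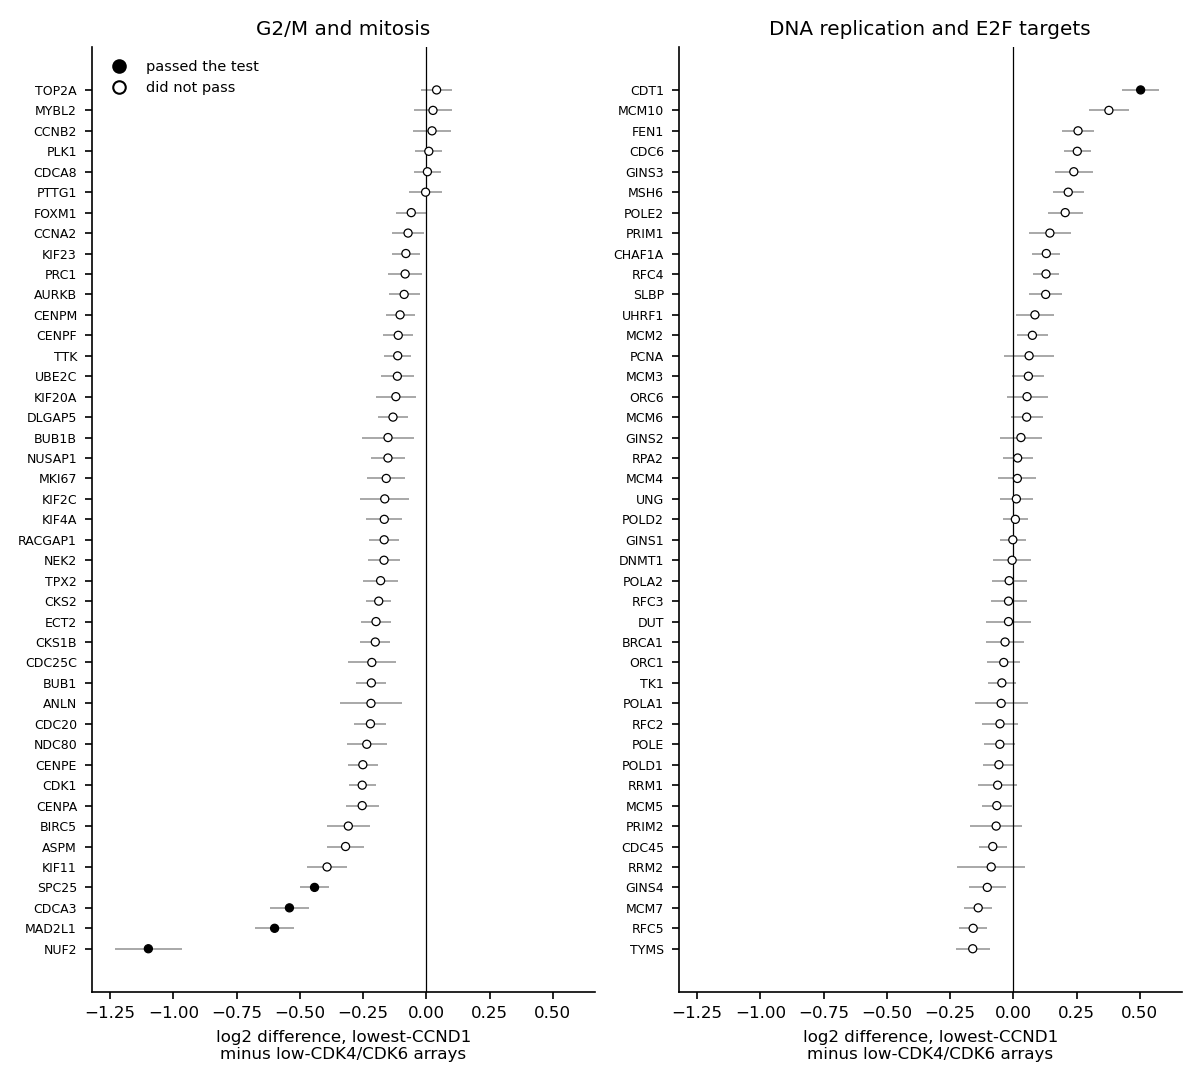
log2 difference (lowest-CCND1 minus low-CDK4/CDK6 arrays) of the 43 tested genes of each cell cycle list, with bars of 1 standard error and filled points for genes that passed the test. In the mitosis list 38 of 43 genes lie below 0, and in the replication list 21 of 43 do.

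CCNE1, the gene of cyclin E1, the cyclin that activates CDK2 after the D cyclins, was higher on the lowest-CCND1 arrays, at 169, 162 and 160.2 against 123, 112 and 108 (1.38-fold, log2 difference 0.46, SE 0.059, limma adjusted p = 0.0134). The 6 other arrays, at 158 to 208, lay nearer to the lowest-CCND1 arrays, so that the low-CDK4/CDK6 arrays stood apart. It was the 1 of 12 tested G1 cyclins, kinases and partners that passed, where 0.212% of all genes passed in this direction. CCND3, the gene of cyclin D3, was at 7517, 7517 and 7181 on the lowest-CCND1 arrays and 6528, 6370.0 and 6412 on the low-CDK4/CDK6 arrays, without overlap but not past the test (log2 difference 0.20, SE 0.051, limma adjusted p = 0.225). CCND3 was lowest on the intermediate-CCND1 arrays, at 5341 to 5638. CCND2, of cyclin D2, was dim and overlapped (log2 difference 0.05, SE 0.056, limma adjusted p = 0.948). The 9 tested RB and E2F genes had differences of -0.11 to 0.24, and 0 passed, a count that 9 genes would also give at the share of all genes.

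Since CDT1, CCNE1 and MAD2L1 belong to gene groups known to be driven by E2F, and ID1 is the gene of interest of the study, the 150 bases before their RefSeq starts (GRCh38.p14) are shown. Capitals mark the E2F-type motifs TTCGCGC or TTGGCGC, and likewise TTCCCGC or TTGCCGC, on either strand. The windows lie at chr16:88803639-88803788, plus strand (CDT1), chr19:29811841-29811990, plus strand (CCNE1), chr4:120066849-120066998, minus strand (MAD2L1) and chr20:31605139-31605288, plus strand (ID1), each written 5′ to 3′ along the gene.
CDT1: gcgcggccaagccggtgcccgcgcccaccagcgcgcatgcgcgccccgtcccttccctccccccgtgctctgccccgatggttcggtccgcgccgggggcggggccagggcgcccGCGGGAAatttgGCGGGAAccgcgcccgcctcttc
CCNE1: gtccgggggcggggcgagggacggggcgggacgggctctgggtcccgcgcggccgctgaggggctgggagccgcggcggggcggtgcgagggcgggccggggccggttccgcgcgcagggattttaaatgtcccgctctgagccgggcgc
MAD2L1: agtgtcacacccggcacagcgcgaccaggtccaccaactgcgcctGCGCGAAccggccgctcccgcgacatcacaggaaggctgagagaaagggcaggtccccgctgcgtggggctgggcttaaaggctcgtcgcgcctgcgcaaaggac
ID1: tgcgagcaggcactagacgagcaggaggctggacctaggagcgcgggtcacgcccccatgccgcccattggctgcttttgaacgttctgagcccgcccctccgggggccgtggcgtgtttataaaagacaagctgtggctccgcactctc
Within 250 bases before the start, CDT1 held 2 of these motifs, MAD2L1 held 1, and CCNE1 and ID1 held 0. Of 35116 promoters, which were not limited to tested genes, 10.9% held at least 1. The number with a motif was 18 of 39 matched replication genes (46.2%) and 8 of 36 matched mitosis genes (22.2%). Among the genes that passed it was 4 of 25 matched higher on the lowest-CCND1 arrays (16.0%) and 7 of 39 higher on the low-CDK4/CDK6 arrays (17.9%). The share among all tested genes was not computed, so these shares have no like baseline. A match is a description of letters and not of binding.

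Of the genes higher on the lowest-CCND1 arrays, most (16 of 27) set the low-CDK4/CDK6 arrays apart from the 9 others. OCIAD1, a protein of endosomes and mitochondria, was at 2209, 2583 and 2414 on the lowest-CCND1 arrays and 1267, 1369 and 1304 on the low-CDK4/CDK6 arrays (1.81-fold, log2 difference 0.86, SE 0.068, limma adjusted p = 0.00145). SLC11A2, the iron transporter DMT1, was at 1365, 1433 and 1184 on the lowest-CCND1 arrays and 793, 733 and 775 on the low-CDK4/CDK6 arrays (1.71-fold, log2 difference 0.77, SE 0.075, limma adjusted p = 0.00341). The 6 other arrays were at 2089 to 2503 for OCIAD1 and 1302 to 1426 for SLC11A2, beside the lowest-CCND1 arrays. KLHL20, a substrate adaptor of a cullin ubiquitin ligase, was at 400.4, 409 and 418 on the lowest-CCND1 arrays and 279, 255 and 267 on the low-CDK4/CDK6 arrays (log2 difference 0.58, SE 0.055, limma adjusted p = 0.00322). NME5, of the nucleoside diphosphate kinase family, was at 215, 218 and 207 on the lowest-CCND1 arrays and 147, 148 and 150.4 on the low-CDK4/CDK6 arrays (log2 difference 0.47, SE 0.051, limma adjusted p = 0.00647). Neither gene overlapped between the sets. DCTPP1, which clears dCTP, had a difference of 0.53, the vacuolar proton pump subunit ATP6V0D1 of 0.48, the protein kinase A inhibitor PKIA of 0.50, the ESCRT-II subunit VPS25 of 0.44 and ARV1, of lipid transport, of 0.49. CD24, a surface glycoprotein, was at 336, 356 and 312 on the lowest-CCND1 arrays and 264, 236 and 236 on the low-CDK4/CDK6 arrays (log2 difference 0.42, SE 0.067, limma adjusted p = 0.0356) and was the 1 gene of 19 tested epithelial and junction genes that passed, where 0.212% of all genes passed in this direction.

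PLAU, the gene of the urokinase protease used in invasion, was the opposite case, higher on the low-CDK4/CDK6 arrays than on all 9 others. It was at 209, 207 and 246 on the lowest-CCND1 arrays and 330.0, 321 and 335 on the low-CDK4/CDK6 arrays (log2 difference -0.54, SE 0.069, limma adjusted p = 0.0134), and the 6 other arrays were at 234 to 260.0. It was the 1 of 22 tested integrins, laminins and matrix proteases that passed, and YAP1 the 1 of 16 tested YAP and TEAD genes, where 0.408% of all genes passed in this direction. The YAP targets CCN2 (-0.12, adjusted p = 0.751) and ANKRD1 (0.25, adjusted p = 0.94) did not. Over the 16 genes differences ran from -1.25 to 0.25 with a median of -0.08, and 11 were negative and 5 positive. All 3 lowest-CCND1 arrays lay below all 3 low-CDK4/CDK6 arrays for 3 of the 16 and above them for 0. Of all genes, 6.18% and 7.68% did so.

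The places of the 6 other arrays, by the nearer set mean on the log2 scale, say on which side a difference lay. Of the 52 genes lower on the lowest-CCND1 arrays, 34 had all 6 nearer to the low-CDK4/CDK6 arrays and 1, PLAU, had all 6 nearer to the lowest-CCND1 arrays. Of the 27 higher ones, 16 had all 6 nearer to the lowest-CCND1 arrays and 1, ID1, had all 6 nearer to the low-CDK4/CDK6 arrays. The intermediate-CCND1 arrays joined the lowest-CCND1 arrays, and the all-high arrays the low-CDK4/CDK6 arrays, in 2 genes. PCTP, a phosphatidylcholine transfer protein, was at 151, 134 and 151 on the lowest-CCND1 arrays and 217, 279 and 238 on the low-CDK4/CDK6 arrays and at 111 to 127 where CCND1 was intermediate (log2 difference -0.68, SE 0.087, limma adjusted p = 0.0134), and at 193 to 228 where all targets were high. BASP1, a membrane protein of growth cones, was the other. SLC25A43, a mitochondrial carrier, and UBE2Q1, a ubiquitin-conjugating enzyme, were higher on the lowest-CCND1 and all-high arrays than on both other sets, and SLC25A43 was at 1722, 1667 and 1552, against 1293, 1064 and 1140.1 and 1128 to 1281 (log2 difference 0.50, SE 0.077, limma adjusted p = 0.0298). GJA1, the gap junction protein connexin 43, was at 411, 472 and 438 on the lowest-CCND1 arrays and 259, 283 and 304 on the low-CDK4/CDK6 arrays (log2 difference 0.61, SE 0.073, limma adjusted p = 0.0108) and at 199 to 254 on the intermediate-CCND1 arrays.

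By its brighter probe ID1, an inhibitor of basic helix-loop-helix transcription factors, was higher on the lowest-CCND1 arrays than on all 9 others. It was at 1719, 1734 and 1750.0 on the lowest-CCND1 arrays and 1451, 1251 and 1267 on the low-CDK4/CDK6 arrays (1.31-fold, log2 difference 0.39, SE 0.066, limma adjusted p = 0.044), and the 6 other arrays were at 1114 to 1315. The arrays with intermediate CCND1 were at 1205 to 1315, so that the high level on this probe was not shared by them. ID1 lay close to the threshold. Adjusted p was 0.0546 without background correction and 0.145 to 0.235 without any 1 array other than CDK4/6 siRNA 2, whose removal gave 0.00257. A second, dimmer ID1 probe was at 145, 146 and 117 and 133, 109 and 118 and overlapped (0.15, SE 0.090, adjusted p = 0.803). On that dimmer probe the intermediate-CCND1 arrays were at 106 to 154. ID3, of the same family, was at 800.1, 785 and 847 against 641, 562 and 664, without overlap but short of the threshold (log2 difference 0.37, SE 0.070, limma adjusted p = 0.0725). ID1 was the 1 gene of 7 tested ID and E protein genes that passed, beside the same 0.212% of all genes. The summed intensity of all probes of the 7 genes, tested or not, was 3535 to 3627 on the lowest-CCND1 arrays. It was 2794 to 3139 on the low-CDK4/CDK6 arrays. Such a sum is weighted to bright probes, the brighter ID1 probe among them. The median log2 difference of the 7 genes was 0.05, with 6 above 0 and 1 below.

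Of genes of the epithelial-mesenchymal transition (EMT), 0 of 24 tested passed, a count that 24 genes would also give at the 0.212% and 0.408% of all genes. SNAI2, the gene of the EMT factor Slug, was at 1318, 1373 and 1475 on the lowest-CCND1 arrays and 1215, 1242 and 1261 on the low-CDK4/CDK6 arrays, without overlap but not past the test (log2 difference 0.16, SE 0.058, limma adjusted p = 0.486), and its dimmer probe overlapped (0.03, adjusted p = 0.984). SNAI2 was highest on the intermediate-CCND1 arrays, at 1457 to 1682. CDH11, of OB-cadherin, overlapped, at 3659, 3933 and 4055 against 3411, 3791 and 3435 (log2 difference 0.13, SE 0.065, limma adjusted p = 0.719). VIM, of vimentin, was at 15294, 16277 and 16971 and 15563, 16844 and 15942 (log2 difference 0.01, adjusted p = 0.996). TWIST1, SNAI1 and CDH1, of E-cadherin, lay near the background level of 44.2 and their sets overlapped (differences of 0.06, 0.06 and 0.03). TGFB1 was lower on the lowest-CCND1 arrays without passing, at 3397, 3105 and 3039 against 3647, 3599.5 and 3541 (log2 difference -0.18, SE 0.059, limma adjusted p = 0.413). TGFB2 (-0.12), TGFB3 (0.04) and SRC (-0.02) overlapped, and KLF17 was not above background on enough arrays to be tested.

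**Figure D5:**
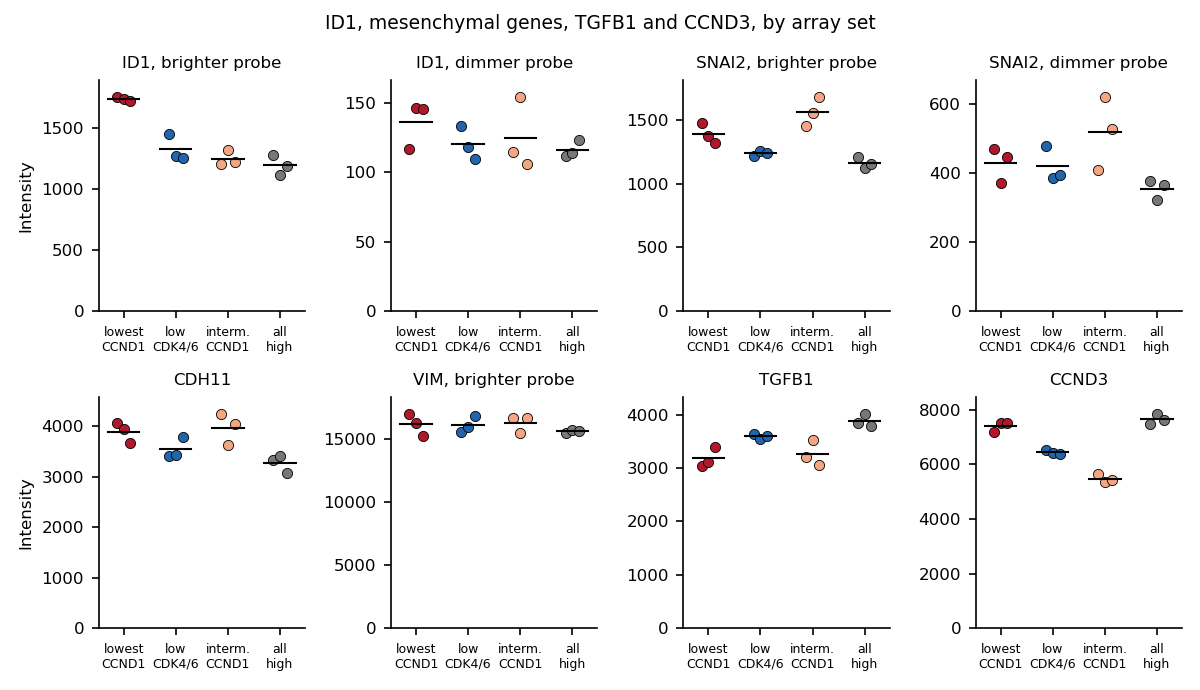
Deposited intensity of ID1 and SNAI2 (2 probes each), CDH11, VIM, TGFB1 and CCND3 on the 12 arrays by set, with a bar at the mean of 3 arrays. The brighter ID1 probe is at 1719 to 1750.0 on the lowest-CCND1 arrays and at 1451 or lower on the 9 others.

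With 0.212% and 0.408% of all genes past the test, lists of this length would hold about 0 such genes, and a count of 0 is no result about a pathway. The count was 0 among 28 tested genes of the interferon response, 14 of the RNA interference machinery, 13 p53 targets, 20 of DNA repair, 20 each of the TGF-beta and Notch pathways or 30 of glycolysis and hypoxia. The cytokine genes IL1A (0.40, adjusted p = 0.267) and IL1B (0.39, adjusted p = 0.107) did not overlap between the sets but did not pass, nor did the other 17 of 19 tested cytokine and NF-kappaB genes. All 3 lowest-CCND1 arrays lay above all 3 low-CDK4/CDK6 arrays for 4 of the 19 and below them for 2. Of all genes, 7.68% and 6.18% did so. The median difference of the 19 was 0.003. HK2, a hexokinase, had a difference of -0.53 with overlapping sets (adjusted p = 0.364).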

How the data were processed

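Total RNA of MDA-MB-231 cells was hybridized to 12 Illumina BeadChip arrays. The authors deposited linear intensity values per probe, with distributions that nearly agree between arrays and with the background still in them. Their normalization and its software were not given in the sources used here. A second deposited table has 24 per-sample columns under names found in no label, and these were not used.

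Background was corrected by normexp with an offset of 50, followed by quantile normalization and log2 transformation. The background was modelled from the mode of the intensities (39.5) and the SD of the values under it (2.91), and probes above 44.2 (one-sided p of 0.05) on at least 3 of the 6 arrays were tested. Probes of CCND1, CDK4 and CDK6 were left out, since they had chosen the arrays. limma 3.58.1 in R 4.3.3 (lmFit and eBayes, two-sided) compared the sets, with Benjamini-Hochberg adjustment over 24347 probes. An exact permutation test of 3 against 3 arrays cannot go below 0.1. The fit was tested on simulated data. Figures were drawn with matplotlib 3.10.9.

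Platform annotation gave 1 symbol to 27578 probes, several to 13 and none to 21212. Of the probes that passed, 12 had no single symbol. For each gene the brightest tested probe, by its mean over the 12 arrays, was used. Named were the 15 genes with the largest differences in each direction among those that passed without overlap, up to 4 passing members of each gene list in each direction, genes the study names at its arrays, and the D cyclins. BASP1 and list members that did not pass were named after their values were seen. The members and lists were chosen with earlier results of these data known, and lists are described by counts and medians only. The sets were formed from measured levels, so the p-values compare these arrays and not treatments. Alternatives covered the background correction, normalization, filter, arrays and terms in the fit, CCND1 limit, test, array weights, probes of a gene and leaving out each array. Chips could not be used as a block, since it is not stated which arrays shared one. Each set was a run of neighbouring arrays in the series, so an effect tied to that order cannot be told apart from a difference between the sets.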

Additional observations from a re-analysis of the deposited data

How the results depend on the processing

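The number of genes past the test depended on the setting. The 79 genes had no overlap between the sets, which fixes their sign when an array is left out. Against 27 genes higher on the lowest-CCND1 arrays and 52 higher on the low-CDK4/CDK6 arrays, a fit over all 12 arrays in 4 sets gave 41 and 69, the same fit with the label as a term 5 and 21, array weights 39 and 81, and a CCND1 limit of 6000, which adds the intermediate-CCND1 arrays, 19 and 4. The methods' t-test with unequal variance gave 0 and 1 after Benjamini-Hochberg, and 450 and 367 at an unadjusted p under 0.05. Leaving out 1 array gave 4 to 69 and 7 to 153, the highest of each without CDK4/6 siRNA 2. The other settings of background, normalization, filter and probes of a gene gave 23 to 30 and 50 to 68.

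With the replicate number as a replicate block 0 and 2 genes passed. Number 1 occurred in the lowest-CCND1 set alone and number 3 in the low-CDK4/CDK6 set alone. The difference in this fit thus came from the arrays numbered 2 only, and the lower counts do not show whether the numbers paired the arrays. This fit is 1 of the 18 alternatives counted below. Same-numbered arrays of the sets, all numbered 2, had correlations of their deviations from -0.38 to 0.23. Deviations were taken from the mean of each set of 3, which forces signs to mix. These values therefore cannot say whether arrays were paired. Matched by order in the series, non-targeting siRNA 1 and CDK4/6 siRNA 2 were at 0.412. The value was 0.118 for no siRNA 2 and non-targeting siRNA 2, and 0.294 for cyclin D1 siRNA 2 and no siRNA 3. Each was the highest value of its lowest-CCND1 array, but non-targeting siRNA 2 was higher with cyclin D1 siRNA 2 (0.229). A pairing by this order was not tested in a fit. CEP20, OCIAD1, SLC11A2 and YAP1 passed under 16 of the 18 alternatives, PLAU under 12, MAD2L1 under 11, NUF2, CCNE1 and CDT1 under 10, and ID1 under 6.

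Small differences changed sign. Leaving out 1 array gave -0.0298 to 0.0452 for VIM, -0.0457 to 0.0366 for SRC and -0.0254 to 0.104 for TGFB3. That of VIM, 0.01, was -0.000379 with cyclic loess, -0.00791 with array weights, -0.012 over the mean of its probes. It was below 0 without cyclin D1 siRNA 2 (-0.0298), CDK4/6 siRNA 2 (-0.0196) or no siRNA 3 (-0.00222). SRC was 0.0225 at the CCND1 limit of 6000, 0.0366 without cyclin D1 siRNA 2 and 0.00942 over its probes. CCND3 was -0.0164 at the limit of 6000, and TGFB3 -0.0254 without non-targeting siRNA 2. The cause was not tested. The number of arrays limits the precision, and dim genes such as TWIST1, SNAI1 and CDH1 cannot be compared near background.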

Other observations

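2 probes of the matrix metalloproteinase gene MMP12 went apart. One averaged 445 over the 12 arrays and was lower on the lowest-CCND1 arrays (log2 difference -0.91, limma adjusted p = 0.00145), and the other averaged 550.0 and did not differ past the test (0.09, adjusted p = 0.879). MMP12 was represented by the latter and is not among the 79 genes. In all, 5 probes passed for genes whose representative probe did not. Of the 18 genes that passed and had more than 1 tested probe, 16 had the same sign in every other probe, and in 4 another probe passed as well.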
